A study of Drosophila melanogaster with 3 samples.

Results

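The nuclear genes for the protein subunits of the mitochondrial ribosome were examined for binding of Nerfin-1 in Drosophila embryos. They were taken as all protein-coding genes whose Ensembl BDGP6.54 symbol starts with mRpL (large subunit) or mRpS (small subunit). This gave 73 of 13945 protein-coding genes, 47 of them mRpL and 26 mRpS. Nerfin-1 is a zinc-finger protein of the INSM1 type that acts on transcription in young neurons. It was pulled down with an antibody against GFP from embryos of a transgenic line that makes the protein with GFP at its C terminus. Embryos of both sexes aged 4 to 16 h were used whole, so a peak may come from any cell type that makes the tagged protein. There were 3 biological replicates of this 1 group, with no second genotype or treatment. Each replicate gave a list of 30000 peaks on the dm6 build, the pooled replicates gave another 30000, and thresholding by the irreproducible discovery rate (IDR) left 7056 peaks, which were the 7056 strongest of the pooled list.

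The mitochondrial ribosome sits in the mitochondrial matrix and translates the few messenger RNAs that mitochondrial DNA encodes, all of them for subunits of the respiratory chain and the ATP synthase. Its RNA is made inside the organelle, whereas its proteins are encoded in the nucleus, made in the cytosol and imported. Some of them descend from bacterial ribosomal proteins and others were added in the line leading to mitochondria.

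Peaks were read by their summit, the base at which a peak is highest, and a summit was assigned to whichever protein-coding gene had the closest transcription start. The nearest start does not show which gene a site acts on. Ranks below order the peaks of a list by the signal the submitters deposited, with rank 1 the strongest. Replicate 2 stood apart from the other replicates over the promoters of all genes. Among the 7056 strongest peaks of each replicate, all summits within 500 bp of a start had a median G+C content of 36% in replicate 2, 42% in replicate 1 and 42.5% in replicate 3. They lay upstream of the start in 74.9% of cases in replicate 2, 58.5% in replicate 1 and 56.3% in replicate 3. Results that rest on replicate 2 are therefore given by replicate. With no test between groups possible, most member counts are set beside the same count over all protein-coding genes.

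Promoters of 6 members are shown because they hold the main features of the set. They are the 300 bases from 250 bp before the start, which is base 251, into the gene, read 5′ to 3′ along the gene from RefSeq release 6 (dm6). Capitals mark TATCGATA, the DNA replication-related element (DRE) bound by the factor DREF, and CAGCTG, an E-box of the kind read by basic helix-loop-helix factors. Both words read the same on both strands, and copies of one cannot overlap copies of the other. The IDR summit falls on base 146 in mRpL32, 150 in mRpL19, 109 in mRpS21, 61 in mRpS26, 59 in mRpS7 and 244 in mRpS11. Apart from mRpS11, the summit lies in A+T-rich sequence well before the start, and where a promoter has capitals they mostly lie nearer to the start.
mRpL32 (chr3R:31252622-31252921, plus strand): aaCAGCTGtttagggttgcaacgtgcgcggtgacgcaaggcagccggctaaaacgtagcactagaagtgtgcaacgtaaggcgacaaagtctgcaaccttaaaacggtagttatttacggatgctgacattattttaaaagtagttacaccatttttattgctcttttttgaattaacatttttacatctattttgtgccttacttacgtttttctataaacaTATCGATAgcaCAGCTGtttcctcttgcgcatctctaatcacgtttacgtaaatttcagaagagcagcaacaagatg
mRpL19 (chr3R:8673859-8674158, plus strand): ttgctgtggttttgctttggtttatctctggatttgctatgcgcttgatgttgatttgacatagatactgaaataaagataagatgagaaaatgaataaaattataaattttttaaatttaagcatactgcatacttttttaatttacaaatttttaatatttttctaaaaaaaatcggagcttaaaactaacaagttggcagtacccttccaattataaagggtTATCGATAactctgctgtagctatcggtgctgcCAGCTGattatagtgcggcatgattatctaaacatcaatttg
mRpS21 (chr3R:13381760-13382059, minus strand): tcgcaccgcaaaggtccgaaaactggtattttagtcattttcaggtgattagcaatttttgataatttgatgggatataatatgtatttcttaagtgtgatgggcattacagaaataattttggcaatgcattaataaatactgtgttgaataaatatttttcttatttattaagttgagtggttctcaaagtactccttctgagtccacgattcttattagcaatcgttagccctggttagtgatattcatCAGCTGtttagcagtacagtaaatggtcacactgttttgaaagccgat
mRpS26 (chr3L:18106329-18106628, plus strand): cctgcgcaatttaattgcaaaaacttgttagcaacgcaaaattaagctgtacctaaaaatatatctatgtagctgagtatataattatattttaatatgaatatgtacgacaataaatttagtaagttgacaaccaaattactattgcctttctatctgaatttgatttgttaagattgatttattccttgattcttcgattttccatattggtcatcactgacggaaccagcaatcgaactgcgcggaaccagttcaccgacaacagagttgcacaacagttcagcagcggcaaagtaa
mRpS7 (chr2L:10386412-10386711, plus strand): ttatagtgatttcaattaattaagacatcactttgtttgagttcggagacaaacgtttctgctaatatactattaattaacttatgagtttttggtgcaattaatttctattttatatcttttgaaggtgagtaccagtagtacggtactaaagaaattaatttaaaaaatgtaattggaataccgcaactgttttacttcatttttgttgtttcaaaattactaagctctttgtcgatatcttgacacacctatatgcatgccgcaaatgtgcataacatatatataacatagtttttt
mRpS11 (chr3R:17072482-17072781, plus strand): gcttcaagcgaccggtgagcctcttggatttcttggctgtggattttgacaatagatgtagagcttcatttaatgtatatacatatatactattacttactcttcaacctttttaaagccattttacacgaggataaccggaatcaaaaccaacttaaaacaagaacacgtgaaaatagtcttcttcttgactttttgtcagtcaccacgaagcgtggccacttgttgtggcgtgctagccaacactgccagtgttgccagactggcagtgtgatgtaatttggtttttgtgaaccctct

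In the IDR list, 22 of 73 members (30.1%) had a summit assigned, against 28.6% of all protein-coding genes. In whole embryos, binding in fewer cells and weaker binding in each cell cannot be told apart. Large-subunit genes had 14 of 47 (29.8%) and small-subunit genes 8 of 26 (30.8%). These subunit counts go by symbol, and in mammals the proteins MRPS18A and MRPS30 are found in the large subunit. Members of bacterial descent, taken by their protein number, had 15 of 44 (34.1%) and mitochondria-specific members 7 of 29 (24.1%), a grouping made after the data were seen. Genes for the ribosome of the cytosol had 73 of 87 (83.9%), genes for the respiratory chain and ATP synthase 28 of 88 (31.8%), and proteasome genes 13 of 48 (27.1%). The share of members with an assigned IDR summit was thus near that of all genes and far below that of cytosolic ribosomal proteins. In the longer pooled list the members had 40 of 73 (54.8%), against 51.8% of all genes.

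The 22 members had 23 IDR summits, 0.326% of the list. The best rank of each had a median of 3972, against 2759.5 over all genes with an IDR summit, and 4 members stood within the first 1000 ranks. The strongest belonged to mRpL41, a mitochondria-specific protein of the large subunit, whose peak spanned 15217541 to 15217959 on 2R. Its summit ranked 10 in the IDR list, and 83, 2 and 94 in replicates 1, 2 and 3, so it was among the strongest 100 of 30000 peaks in every replicate. It lay 137 bp upstream of the mRpL41 start, in intergenic sequence of 26.5% G+C. The next nearest gene, CG8079, started 625 bp from the summit.

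The second was mRpL23, whose bacterial counterpart sits at the mouth of the tunnel through which the new protein leaves the ribosome. Its summit, in a peak from 2373418 to 2373797 on 3L, ranked 189 in the IDR list and 298, 115 and 488 in replicates 1, 2 and 3. It lay 59 bp inside the gene from the nearest of its annotated starts. The divergent gene CG9004 starts 109 bp from this summit. The third, mRpS11, encodes a protein of the platform of the small subunit and had a summit 7 bp before its start on 3R, in a peak from 17072580 to 17072875. That summit ranked 644 in the IDR list and 604, 708 and 753 in replicates 1, 2 and 3, a nearly even order. The divergent gene Ns1 starts 50 bp from the mRpS11 summit, and the summit of replicate 3 was nearer to Ns1 than to mRpS11.

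The fourth, mRpL21, differed in place from all others. Its summit, in a peak from 19251166 to 19251570 on 3L, ranked 997 in the IDR list and 724, 2727 and 464 in replicates 1, 2 and 3. It lay 3724 bp downstream of the mRpL21 start, past the end of the gene, in an exon of the non-coding RNA gene lncRNA:CR46216. It was also G+C-rich, at 57.5%. The promoter of mRpL21 had a separate IDR summit 192 bp upstream, rank 4473, which was assigned to the divergent gene rept, an AAA+ ATPase of chromatin complexes, 87 bp away.

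One member, mRpL34, had 2 IDR summits, both inside a single peak from 16098534 to 16099122 on 2R. The upstream summit, 126 bp before the start in sequence of 34.5% G+C, ranked 1683 in the IDR list and 798 in replicate 2, with no summit within 100 bp in replicates 1 and 3. The downstream summit, 76 bp into the gene in an intron of 44.5% G+C, ranked 2866 in the IDR list and 2266, 7245 and 1073 in replicates 1, 2 and 3. Within this peak replicate 2 was strongest on the upstream side and replicates 1 and 3 had their summit on the downstream side. The divergent neighbour is Dg, which encodes dystroglycan, a receptor for the extracellular matrix, and it starts 258 bp from the upstream summit.

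The other 7 of the 12 best-ranked members all had a summit 101 to 212 bp upstream of the start, with IDR ranks from 3015 to 3974. The summit of mRpL43, 103 bp upstream, ranked 5874, 2691 and 3262 in replicates 1, 2 and 3. That of mRpL19, 101 bp upstream, ranked 4702, 4420 and 4760 in replicates 1, 2 and 3. Both were thus within the strongest 7056 in every replicate, and mRpL19 has no divergent start within 1000 bp, the next gene, Unc50, starting 2605 bp from the summit. The summit of mRpL32, 105 bp upstream, ranked 10367, 2207 and 6441 in replicates 1, 2 and 3. Its protein is matured by a protease of the inner membrane in yeast and mouse before it joins the ribosome. The summit of mRpS26, a mitochondria-specific protein, lay 190 bp upstream and ranked 9661, 1860 and 20503 in replicates 1, 2 and 3.

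The summit of mRpS7, 192 bp upstream, ranked 23017, 1777 and 6577 in replicates 1, 2 and 3, and lay 208 bp from the start of the cell-cycle kinase gene Cdk1. In replicate 2 itself the matching summit was nearer to Cdk1, so this list gave mRpS7 none. The summit of mRpS21, 142 bp upstream and 155 bp from the start of the divergent gene Droj2, ranked 1795 in replicate 2 and 9789 in replicate 3. It had no match within 100 bp in replicate 1. The summit of mRpS17 lay 212 bp upstream, on the side of Nop60B, which encodes the pseudouridine synthase of ribosomal RNA. It ranked 6100 and 3026 in replicates 1 and 2 and had no match within 100 bp in replicate 3. Where these 7 were matched in both, replicate 2 gave a better rank than replicate 1, by little only in mRpL19, as the plot of ranks by replicate shows.

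**Figure D1:**
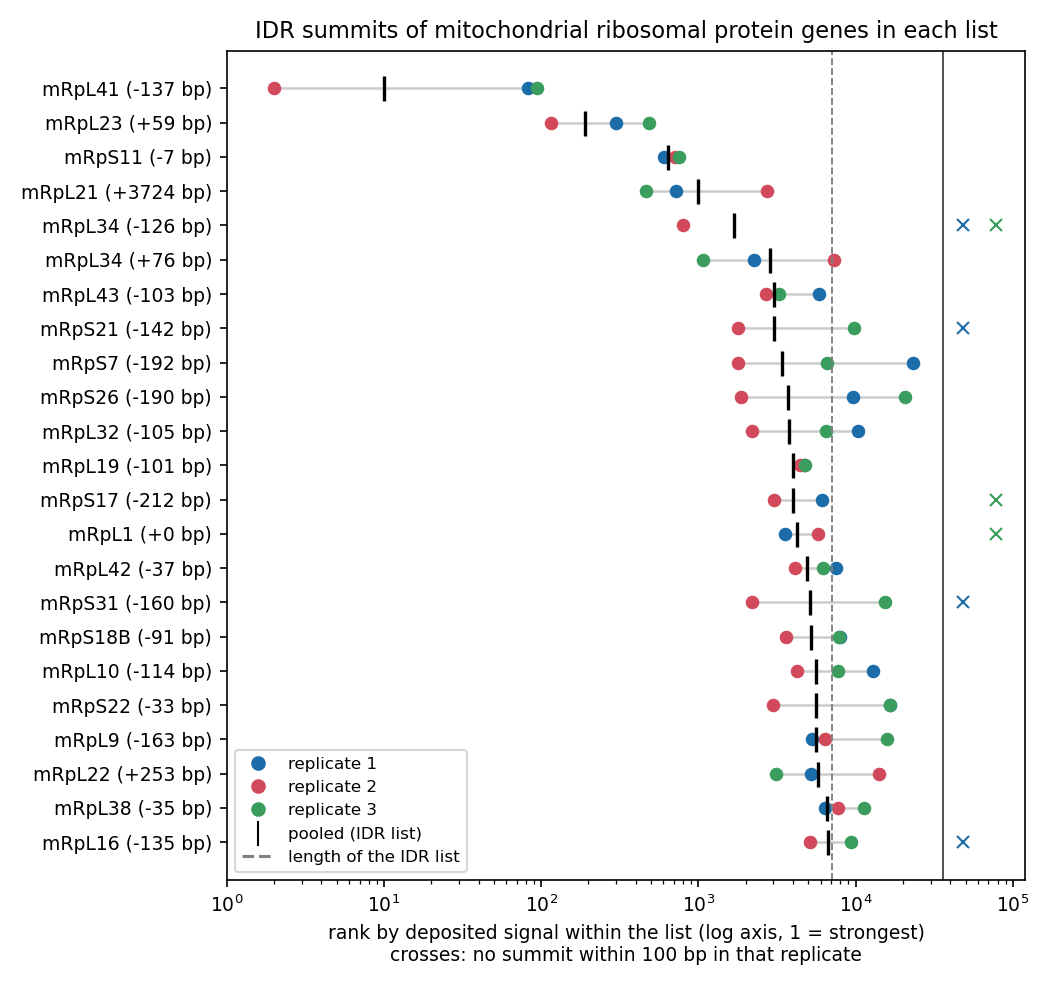
Rank of each IDR summit of a member (rows, best IDR rank on top, with its distance from the start) in replicates 1, 2 and 3 (dots) and in the pooled list (black bar) on a log axis. Crosses right of the solid line mark replicates with no summit within 100 bp, and the dashed line marks rank 7056. For mRpL41 the 3 replicates had ranks 83, 2 and 94, and in most of the lower rows the dot of replicate 2 is the leftmost.

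The remaining 10 members with an IDR summit ranked from 4230 to 6667. In order they were mRpL1, mRpL42, mRpS31, mRpS18B, mRpL10, mRpS22, mRpL9, mRpL22, mRpL38 and mRpL16. They include mRpL1, whose bacterial counterpart forms the mobile stalk at the exit site for transfer RNA and whose summit fell on the start itself, and mRpL10, of the base of the stalk that recruits translation factors. The summit of mRpL22, which lines the exit tunnel, lay 253 bp into the gene in a coding exon of 61% G+C. Its ranks were 5185, 13990 and 3120 in replicates 1, 2 and 3, the reverse of the usual order, and it was the most G+C-rich of the 23 summits. The summit of mRpS22, 33 bp upstream at 32% G+C, ranked 16442, 2975 and 16548 in replicates 1, 2 and 3. A stronger IDR summit, rank 2574, lay 238 bp upstream of mRpS22 and was assigned to the divergent gene CG5003.

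Over the 23 member summits the median rank was 5874 in replicate 1, 2975 in replicate 2 and 6509 in replicate 3. The same medians over all promoter summits of the IDR list were 3272.5, 3117 and 3316.5. A summit within 100 bp was present for 19, 23 and 20 of the 23 in replicates 1, 2 and 3, and was among the strongest 7056 for 12, 20 and 11. All 3 replicates had it among the strongest 7056 for 6 of 23 (26.1%). At promoters these were 5 of 22 (22.7%), against 49.7% of all promoter summits of the IDR list. Member summits therefore ranked lower than other promoter summits in replicates 1 and 3 and about level with them in replicate 2.

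Of the 17 member summits matched in every replicate, replicate 2 ranked 13 (76.5%) ahead of the mean log2 rank of the other replicates. At promoters these were 13 of 16 (81.25%), against 53.1% of all promoter summits. Among summits 80 to 220 bp upstream, replicate 2 was ahead for 9 of 9 member summits, against 72.7% of those of any gene. The lead, as the log2 rank in replicate 2 minus the mean log2 rank in replicates 1 and 3, was largest for mRpL41 (−5.46), mRpS26 (−2.92), mRpS7 (−2.79) and mRpS22 (−2.47). It was most positive, with replicate 2 behind, for mRpL21 (2.23), the downstream summit of mRpL34 (2.22), mRpL22 (1.80) and mRpS11 (0.07). The first 4 summits had 26.5 to 32% G+C and the other 4 had 41 to 61%. Across the 17 summits Spearman's rho between G+C content and this lead was 0.58. It was 0.50 across the 16 at promoters and 0.66 across all matched promoter summits. Among summits 80 to 220 bp upstream it was −0.19 over the 9 of members and 0.57 over those of any gene. The summits share the same 3 libraries, so these values are a description, and the part of base composition in the order of replicate 2 was not tested.

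**Figure D2:**
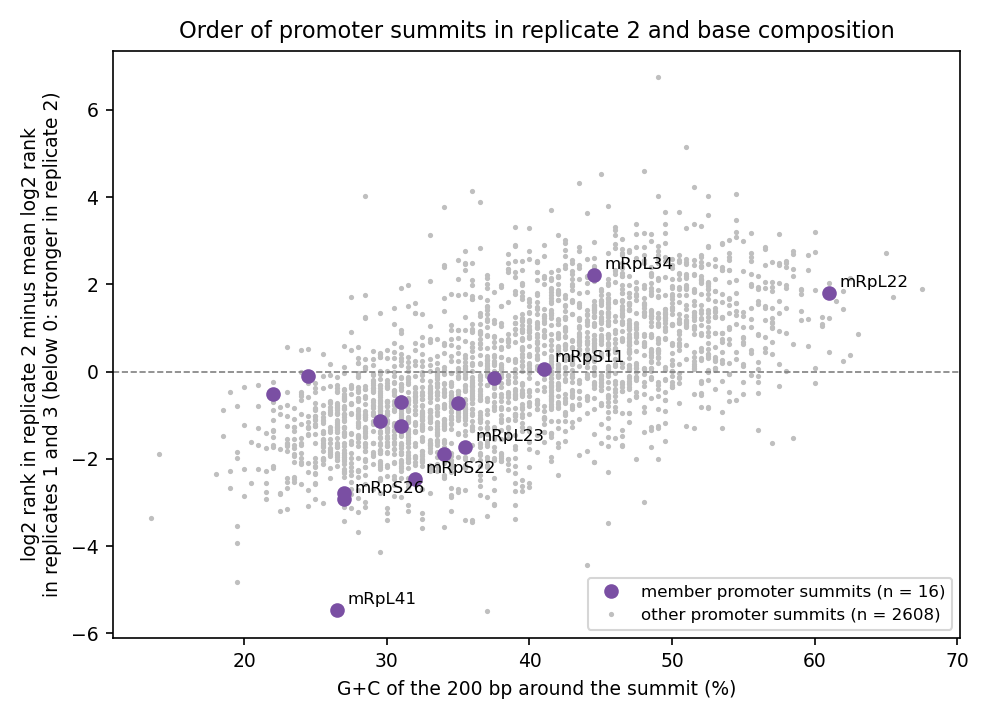
G+C content of the 200 bp around a promoter summit (horizontal, %) against log2 rank in replicate 2 minus the mean log2 rank in replicates 1 and 3 (vertical; below 0 means stronger in replicate 2). The 16 member promoter summits matched in every replicate (purple) lie within the spread of the 2608 others (grey), except that mRpL41 at −5.46 lies near the lower edge.

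Counted by replicate, 12, 24 and 12 members had an assigned summit among the strongest 7056 peaks of replicates 1, 2 and 3, a mean of 16 ± 6.93 (SD, n = 3). As shares these were 16.4%, 32.9% and 16.4% of members, against 27.2%, 30.3% and 26.9% of all protein-coding genes. Members were thus below the share of all genes in replicates 1 and 3 and slightly above it in replicate 2. Large-subunit genes gave 11, 15 and 9 of 47, and small-subunit genes 1, 9 and 3 of 26. Only 7 members (9.59%) were called in all 3 replicates, against 19.0% of all genes. They were mRpL19, mRpL21, mRpL23, mRpL34, mRpL41, mRpL43 and mRpS11.

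A further 13 members were called in replicate 2 and in neither other replicate. No share of all genes is set beside this count, so it describes these members only. They were mRpL4, mRpL10, mRpL17, mRpL40, mRpL53, mRpS17, mRpS18A, mRpS18B, mRpS21, mRpS22, mRpS26, mRpS29 and mRpS31. The set holds mRpS29, known in mammals as DAP3, a GTP-binding protein also studied in cell death. When IDR summits had to be matched among the strongest 7056 peaks of 2 replicates, 8 members (11.0%) had one without replicate 2, 9 (12.3%) without replicate 1 and 9 (12.3%) without replicate 3. The shares of all genes were 20.8%, 18.5% and 19.3% for the same settings. In the whole lists of 30000 peaks, 35, 41 and 41 members had an assigned summit in replicates 1, 2 and 3 (47.9%, 56.2% and 56.2%), against 53.1%, 56.8% and 52.4% of all genes.

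**Figure D3:**
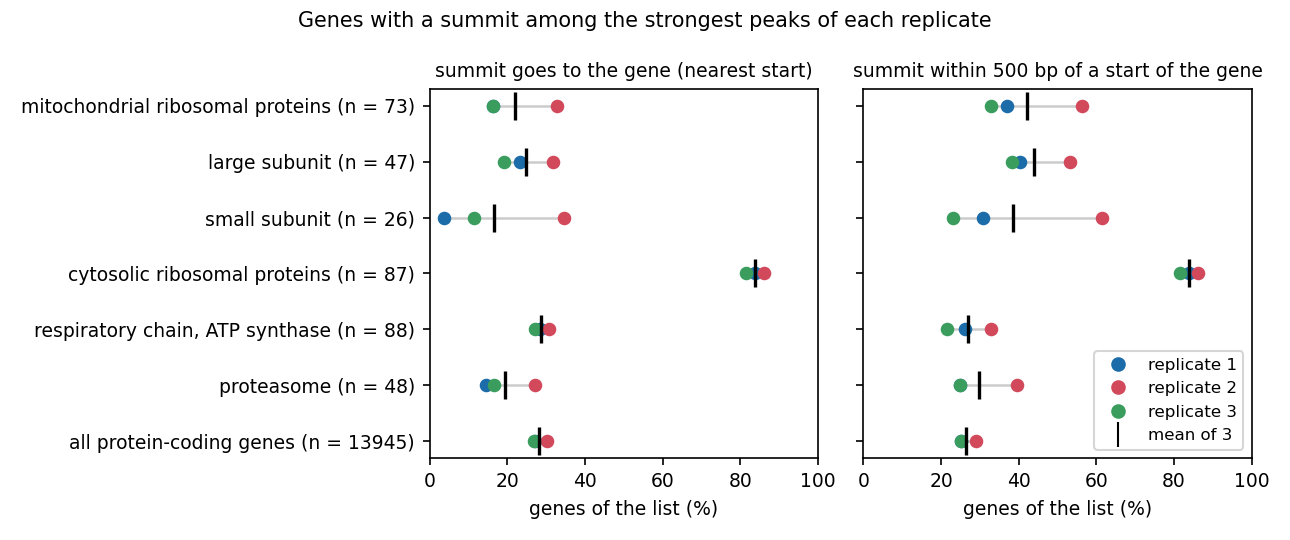
Share of the genes of each list (rows, with n) with a summit among the strongest 7056 peaks of replicates 1, 2 and 3 (dots) and the mean of the 3 (black bar). On the left the summit is assigned to the gene, and members had 16.4%, 32.9% and 16.4%. On the right any summit within 500 bp of a start counts, and members had 37.0%, 56.2% and 32.9%.

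Most member summits lay in the upstream part of the promoter. All but that of mRpL21 lay within 500 bp of the start, and 18 of 23 were intergenic. Of the 22 promoter summits, 14 (63.6%) lay 80 to 220 bp upstream of the start, against 29.8% of all promoter summits of the IDR list and 12.7% of those of cytosolic ribosomal proteins. This window was chosen after the data were seen. A matching summit was among the strongest 7056 peaks for 5, 14 and 5 of these 14 in replicates 1, 2 and 3. For all promoter summits in the window the shares were 71.3%, 86.4% and 70.5%. The count of 14 thus rests most on replicate 2. The median position of the 22 was −104 bp, against −60 bp for all promoter summits and −17 bp for cytosolic ribosomal proteins. Among the strongest 7056 peaks of replicates 1, 2 and 3 the median was −43, −101 and −97 bp for members. It was −29, −90 and −25.5 bp for all promoter summits of these peaks. Within 100 bp on either side of the start lay 8 of the 22 (36.4%), against 44.6% of all promoter summits. Taken over every IDR summit, promoter or not, the shares were 34.8% of the 23 of members and 21.0% of all.

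The sequence around member summits was A+T-rich, with a median of 31.5% G+C over the promoter summits, against 39% for all promoter summits. Promoter summits of any gene that lay 80 to 220 bp upstream had a median of 33%, against 28.8% for the 14 member summits there. Averaged over all 73 member promoters, G+C content had a dip on either side of the start. It was 28.5% from 150 to 100 bp upstream, against 36.0% over all genes and 31.4% over cytosolic ribosomal proteins. From 50 bp upstream to the start it was 42.6% in members and 43.1% over all genes. The downstream dip, from 50 to 100 bp, had 31.6% in members, 40.8% over all genes and 36.5% over cytosolic ribosomal proteins. From 40 to 80 bp downstream lay 2 of the 22 member promoter summits (9.09%), against 7.27% of all promoter summits. From 80 to 120 bp downstream lay 0, against 4.52% of all promoter summits. From 150 to 100 bp upstream lay 8 of the 22 member promoter summits (36.4%), against 13.8% of all promoter summits and 7.59% of those of cytosolic ribosomal proteins. This bin is the lowest of the members' own profile and was chosen from it. It lies inside the window of 80 to 220 bp, where the count rested most on replicate 2. In replicate 2, which favoured A+T-rich upstream summits over all promoters, 87.0% of the 23 member promoter summits among the strongest 7056 peaks were upstream of the start, against 63.6% of the 11 in replicate 1 and 63.6% of the 11 in replicate 3.

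**Figure D4:**
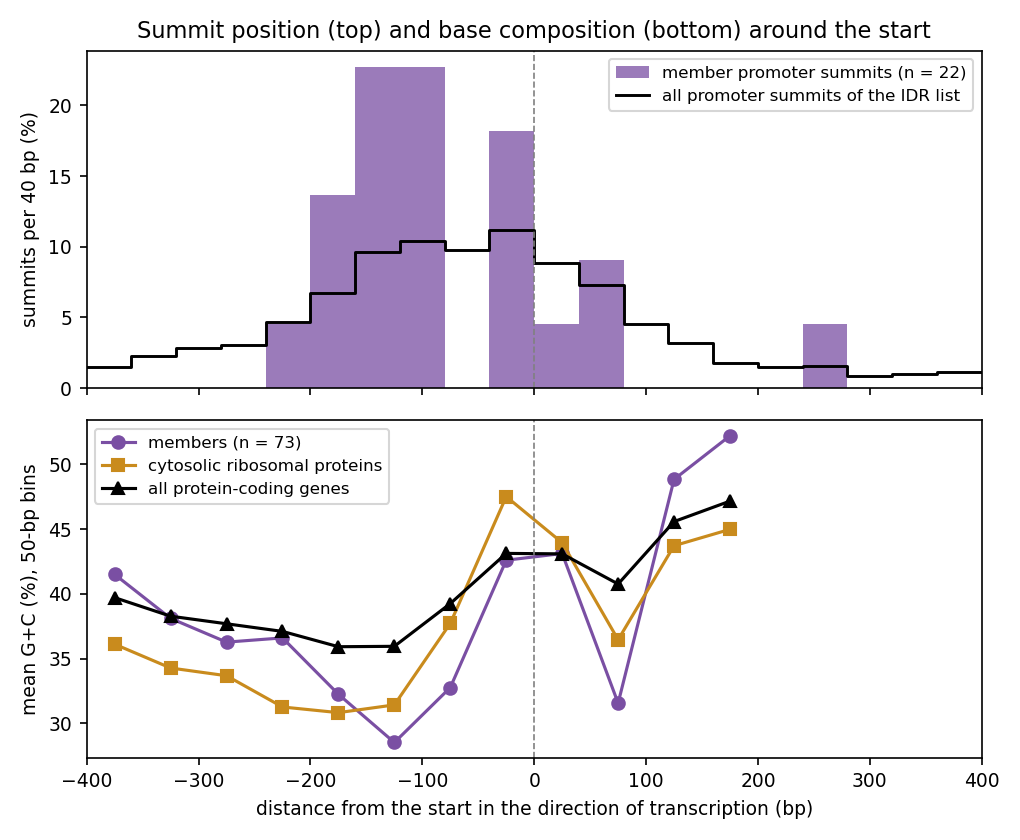
Top, distance of promoter summits of the IDR list from the start in bp, as a percentage per 40 bp, for the 22 member promoter summits (bars) and all promoter summits (line). Bottom, mean G+C content in 50-bp bins for all 73 members, cytosolic ribosomal proteins and all protein-coding genes. Of the member summits 14 lie 80 to 220 bp upstream, and from 150 to 100 bp upstream member promoters average 28.5% G+C, against 36.0% over all genes.

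Members often share their promoter region with a gene pointing the other way. A divergent protein-coding start within 1000 bp was present for 58 of 73 members (79.5%), against 36.2% of all genes, 59.8% of cytosolic ribosomal proteins and 50% of respiratory chain genes. The median distance between the starts was 283 bp for these members and 298 bp for all divergent genes. The territory of a member, the stretch nearer to its starts than to those of other protein-coding genes, had a median of 1519 bp, against 4238.5 bp over all genes. A summit between divergent starts goes to only one of them under the nearest-start rule, so summits were also counted for every gene with a start within 500 bp.

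By this count 36 of 73 members (49.3%) had an IDR summit, against 27.1% of all protein-coding genes. Among the strongest 7056 peaks of replicates 1, 2 and 3 the members had 27, 41 and 24 (37.0%, 56.2% and 32.9%), a mean of 42.0% ± 12.4 (SD, n = 3). All genes had 25.0%, 28.9% and 25.2%. Members were above all genes in each replicate, although most in replicate 2. Large-subunit genes had 40.4%, 53.2% and 38.3%, and small-subunit genes 30.8%, 61.5% and 23.1%, so the small subunit fell below all genes in replicate 3. All 3 replicates called 18 members (24.7%), against 17.4% of all genes. Without replicate 2, 18 members (24.7%) had an IDR summit matched in both other replicates, against 18.2% of all genes.

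Divergence and this count went together. Of the 58 divergent members 33 (56.9%) had an IDR summit within 500 bp, against 45.6% of all divergent genes. Of the 15 members with no divergent start 3 (20%) had one, against 16.6% of all such genes. The part of gene arrangement in the members' share was not tested beyond these values.

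For 14 members every IDR summit within 500 bp was assigned to another gene. This count has no share of all genes beside it, so it describes these members only. The pairs were mRpL17 with Tudor-SN, mRpL20 with Icmt, mRpL24 with betaggt-I, mRpL27 with CG15435, mRpL44 with Snr1, mRpL47 with CG8176, mRpL51 with Uba4, mRpL53 with AGO1, mRpL54 with CG15653, mRpS2 with Mon1, mRpS10 with Art3, mRpS16 with cg, mRpS23 with CenG1A and mRpS24 with Apc2. Among the neighbours, Snr1 is a subunit of the Brahma chromatin remodelling complex, AGO1 the Argonaute protein of the microRNA pathway, and Apc2 a negative regulator of Wnt signalling. With the rept summit at mRpL21 and the CG5003 summit at mRpS22, 18 such shared summits lay 104 to 409 bp from the member start, with a median of 186 bp. All 18 were upstream of the member.

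The shared summits at ranks 20 and 25 had better ranks than all assigned member summits but that of mRpL41. The summit between mRpS10, a protein of the head of the small subunit, and the arginine methyltransferase gene Art3 ranked 20 in the IDR list and 63, 4 and 78 in replicates 1, 2 and 3. It lay 134 bp from the mRpS10 start and 123 bp from that of Art3, a margin of a few bases. The summit at CenG1A ranked 25 in the IDR list and 37, 28 and 33 in replicates 1, 2 and 3, and lay 83 bp from CenG1A and 409 bp from mRpS23. Those at mRpL24 and mRpS16 ranked 372 and 452. The shared summits had a median IDR rank of 2006.5, and medians of 2082, 2444 and 2481 in replicates 1, 2 and 3, which differ little. Summit by summit, replicate 2 had the best rank at 10 of the 15 shared summits matched in every replicate (66.7%). It had the best rank at 11 of the 16 such member promoter summits (68.75%) and at 46.3% of all promoter summits. Among promoter summits 80 to 220 bp upstream, it was best at 67.4% of those of any gene and 8 of 9 of those assigned to members.

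With all 30000 peaks of each replicate, 67 members (91.8%) had a summit within 500 bp of a start in at least 1 replicate, against 59.8% of all genes. In 49 members all 3 replicates had one, and the best rank came from replicate 2 in 33 (67.3%), from replicate 1 in 12 and from replicate 3 in 4. For all genes with such a summit in every replicate, replicate 2 gave the best rank in 48.4%, and for cytosolic ribosomal proteins in 44.9%.

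The members without an IDR summit of their own fell into 3 sets. They are listed by name, with no share of all genes beside their counts, which rest on the nearest-start rule. The first, 18 members, had a pooled summit only. The 4 just below the IDR list were mRpL48 at pooled rank 7686, mRpS18A at 8226, mRpL52 at 8292 and mRpL13 at 10379. The best summit assigned to mRpS18A ranked 15353, 5329 and 20115 in replicates 1, 2 and 3, that of mRpL13 8510, 9467 and 17076, and that of mRpL52 7872, 19028 and 10550. The gene mRpL48 had 7644 and 22197 in replicates 2 and 3 and none in replicate 1. The last in the list, mRpL38 at 6549 and mRpL16 at 6667, and mRpL48 at 7686 thus stood on either side of the limit at 7056. The other 14 were mRpL49, mRpL54, mRpS28, mRpL50, mRpL17, mRpL28, mRpS29, mRpS6, mRpL53, mRpL30, mRpS33, mRpL12, mRpL18 and mRpL2, down to rank 29351. Among these is mRpL12, of the stalk that recruits translation factors, known in Drosophila to be needed for growth driven by Cyclin D and Cdk4. Its best pooled rank was 25564, and its best ranks were 20739, 18040 and 21708 in replicates 1, 2 and 3.

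The second set, 11 members, had a summit in a replicate list only, and held mRpL3, mRpL4, mRpL14, mRpL33, mRpL39, mRpL40, mRpS2, mRpS5, mRpS18C, mRpS23 and mRpS25. The third set, 22 members, had no assigned summit in any list. These were mRpL11, mRpL15, mRpL20, mRpL24, mRpL27, mRpL35, mRpL36, mRpL37, mRpL44, mRpL45, mRpL46, mRpL47, mRpL51, mRpL55, mRpS9, mRpS10, mRpS14, mRpS16, mRpS24, mRpS30, mRpS34 and mRpS35. Several of them still had a summit near the start that was assigned to the neighbour. Besides those named above, mRpL37 had one of rank 1138 and mRpL11 one of rank 1906 in replicate 2, each with none within 500 bp in replicates 1 and 3. No summit lay within 500 bp of mRpL45, which anchors the ribosome to the inner membrane in mammals, of mRpL40, mRpL46, mRpS9, mRpS34 or mRpS35 in any replicate.

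The 11 short sequence words tried were sought on both strands in the 300-bp promoters. The E-box CAGCTG was in 40 of 73 member promoters (54.8%), against 17.7% of all protein-coding promoters. Large-subunit genes had it in 57.4% and small-subunit genes in 50% of promoters. Other genes of mitochondrial translation were close to this, with 7 of 15 translation factors and 7 of 15 aminoacyl-tRNA synthetases (46.7% each). The word was in 23.9% of promoters of the respiratory chain, 8.05% of those of cytosolic ribosomal proteins and 4.17% of those of the proteasome. The word gathered at the start, with a copy beginning from 10 bp before to 30 bp after it in 26 members (35.6%), against 4.82% of all genes. Next to it, A stood 2 bases before the word or T 2 bases after in 76.2% of flanks in members, against 50.2% over all copies in promoters.

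None of the 23 member summits had CAGCTG within 50 bp, a share near the 5.49% of all promoter summits of the IDR list that did, and the nearest copy was 81 bp away. A copy lay within 500 bp of 15 of the summits, at 10 of them on the downstream side, with a median offset of 113 bp. An IDR summit was assigned to 10 of the 40 members with the word (25%) and to 12 of the 33 without it (36.4%). Over all genes the shares were 30.5% with the word and 28.2% without.

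**Figure D5:**
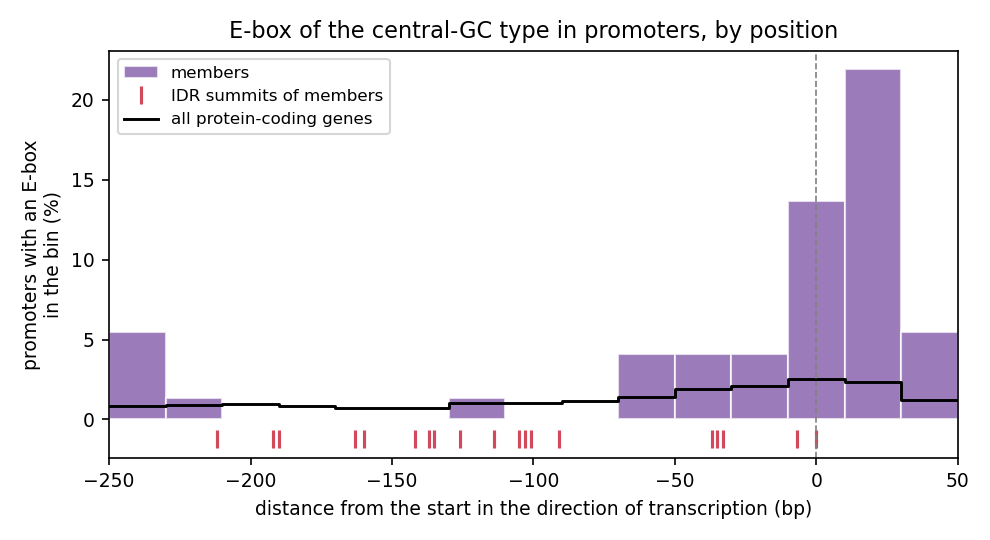
Share of promoters (vertical, %) with the E-box in 20-bp bins by distance from the start in bp (horizontal), for the 73 members (bars) and all protein-coding genes (line). Red ticks mark the IDR summits of members in this range. The bars are highest just after the start, whereas most ticks lie 80 to 220 bp upstream.

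The DRE word TATCGATA was in 15 of 73 member promoters (20.5%), against 9.36% of all promoters and 29.9% of those of cytosolic ribosomal proteins. An IDR summit was assigned to 6 of the 15 members with it (40%) and to 16 of the 58 without (27.6%), and over all genes to 38.8% with and 27.5% without. None of the 23 summits had the DRE within 50 bp, against 3.04% of all promoter summits, a difference this number of summits cannot show. Both words occurred together in 5 member promoters, including those of mRpL32 and mRpL19 printed above, the E-box alone in 35, the DRE alone in 10 and neither in 23. The promoters of mRpS26, mRpS7 and mRpS11 are among the last, and all have an IDR summit.

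The TATA word TATAAA was in 46.6% of member promoters and 45.8% of all promoters, and the initiator core TCAGT in 38.4% and 51.5%. The motif 1 core GGTCACAC was in 11.0% of members and 7.70% of all promoters, and the motif 7 core CANCNCTA in 21.9% and 15.6%. The initiator core was thus rarer in members than over all promoters. It was in 33.3% of promoters of cytosolic ribosomal proteins, 36.4% of those of the respiratory chain and 54.2% of those of the proteasome. GAGAGAG was in 1 member promoter (1.37%), against 5.87% of all. It was in 0% of promoters of cytosolic ribosomal proteins, 1.14% of those of the respiratory chain and 4.17% of those of the proteasome. The core of the vertebrate INSM1 word, CAGGGG, was in 3 member promoters (4.11%), against 4.21% of all. It lay within 50 bp of none of the member summits, against 1.63% of all promoter summits, a difference this number of summits cannot show. The TATA and motif 7 words can overlap a DRE by their ends. A match is a run of letters, and no match says only that these letters are not in the window.

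No other list of nuclear genes for mitochondrial gene expression had a larger share with an assigned IDR summit than the 28.6% of all genes. The small-subunit genes that the symbol rule misses, tko (the S12 protein, whose mutants have seizures on mechanical shock) and bonsai (S15), had none, with pooled ranks of 7310 and 8203. Of 15 translation and messenger RNA factors 4 had one, namely mTerf5 at rank 1602, the initiation factor mIF2 at 3319, and the elongation factors mEFG1 at 4744 and mEFTs at 5267. Of 15 mitochondrial aminoacyl-tRNA synthetases, which load transfer RNAs, 3 had one, AspRS-m at rank 1949, GluRS-m at 5256 and LeuRS-m at 5292. Of 7 genes for copying and transcribing mitochondrial DNA only mtSSB, the single-stranded DNA binding protein, had any, with 3 summits of which the best ranked 2896. The strongest of these other genes, mTerf5, ranked below mRpL41, mRpL23, mRpS11 and mRpL21 and above every other member.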

How the data were processed

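Chromatin from 3 biological replicates of whole embryos was immunoprecipitated with anti-GFP after sonication to fragments of 200 to 800 bp, per the labels. A second age label was too large for embryos, so the range in the source label was used. The authors called dm6 peaks per replicate and on the pooled replicates against a control file not used here, per the deposited notes. For the aligner, caller and IDR threshold, nothing is stated in the sources used here. Column 7, the deposited signal of each peak, carries no stated normalization and only ranked peaks within a list. Depth per sample, and the precision it gives, cannot be known from peak lists. All 5 lists were used, with 0 columns left unmapped.

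Starts came from Ensembl release 115 (BDGP6.54) on 6 arms and sequence from RefSeq release 6, with Python 3.11.15, numpy 2.4.6, pandas 2.3.3 and scipy 1.17.1. All transcript starts counted. A replicate summit matched an IDR summit within 100 bp, and G+C was taken over 200 bp. With 1 group there was no test; means ± SD are over replicates. The members, gene lists and words were chosen with earlier results of these data known. Full values were given for the 12 best-ranked members, members with 2 or more summits, the 4 furthest ahead and 4 furthest behind in replicate 2, and the 4 just below the IDR list. Members named for shared summits or for replicate 2 alone, and mRpL12, were chosen after their values were seen. Assignment and matching were tested on simulated data. Alternatives changed the assignment rule, distances, list length, starts, windows, words and replicates.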

Additional observations from a re-analysis of the deposited data

How the results depend on the processing

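No paired analysis was possible because the 3 replicates form 1 group. The 22 members with an assigned IDR summit became 36 when any summit within 500 bp counted, 8 with the strongest 3528 peaks of the list, 40 with the pooled list and 8 to 9 without 1 replicate, against 28.6% of all genes at the start and 18.5 to 20.8% without 1 replicate. The share of all genes was 27.1% within 500 bp and 51.8% with the pooled list, and is not given for the strongest 3528. The mean of 16 members per replicate became 39 with all peaks, 8.33 with 3528 peaks each, and 12 to 18 without 1 replicate. The 34.8% of member summits within 100 bp of a start became 21.7% at 50 bp, 91.3% at 250 bp and 95.7% at 500 bp, and was 33.3 to 37.5% without 1 replicate. The median best rank of 3972 became 1931.5 to 3015 without 1 replicate. The 58 members with a divergent start became 25 at 250 bp. The 15 DRE promoters became 0 at summits and 27 with ATCGAT. Alternatives added after seeing the data gave, for the 36 members within 500 bp, 17 with the strongest 3528 peaks, 60 with the pooled list and 18 to 22 without 1 replicate. As shares these were 23.3%, 82.2% and 24.7 to 30.1% of members, against 15.7%, 49.5% and 16.6 to 18.2% of all genes. Counts fall by construction with fewer peaks, shorter distances or a required match. A required match among the strongest peaks also tends to drop summits of weak rank, so the median best rank depends on that setting. The cause of other changes was not tested. The remaining 24 of the recomputed values stayed within 1.5 times or 1 SD of the main one, those for CAGCTG and the median ranks by replicate among them. Read depth is not known from peak lists.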
